A study of Mus musculus with 14 samples.

Results

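Genes of the extracellular matrix, its collagens and the stellate cells and fibroblasts that make it were followed sample by sample in liver and liver tumour tissue of male mice of C3HeB/FeJ, an inbred strain whose livers form tumours without any carcinogen as the animals age. The set is a list of 38 named genes grouped by function, drawn up with earlier results of these data known. Of these, 37 had a measured row, among 21431 named genes in all, and 33 passed the filter on low counts. Lox, Loxl1, Mmp2 and Timp1 did not pass it, and Col6a3 had no matched row.

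RNA sequencing covered 14 tissue samples, all from mice of 18 months. There were 4 tumours marked Regress (Regress 1 to 4), 6 tumours marked Grow (Grow 1 to 6) and 4 normal livers (Normal 1 to 4). The labels do not say how growth or regression was scored. Mice were checked for tumours at 10 months and injected on 5 days of every 28-day cycle for 6 cycles. Regress 1 and 3 had received temozolomide (TMZ, a drug that alkylates DNA) at 31 mg/kg, Regress 2 the phosphate citrate buffer and Regress 4 the solvent DMSO. Grow 2, 3 and 4 had received SAHA (a histone deacetylase inhibitor, suberoylanilide hydroxamic acid) at 85 mg/kg with TMZ at 22 mg/kg, Grow 6 SAHA alone at 100 mg/kg, and Grow 1 and 5 DMSO. All 4 normal livers had received buffer, so Regress 2 was the sole tumour with the treatment of the normal livers, and tumour and injection cannot be fully told apart. Each sample is a piece of whole tissue, in which fewer cells of a type and less RNA per cell cannot be told apart.

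In healthy liver, hepatic stellate cells lie between the hepatocytes and the sinusoidal endothelium and store vitamin A. After injury they can turn into contractile cells resembling myofibroblasts, which secrete fibrillar collagens and express smooth muscle actin. Fibroblasts around the portal tracts, smooth muscle cells and the mesothelium of the liver surface also make matrix, and the basement membrane collagens come from endothelial cells as well.

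Library totals ran from 4.71 to 13.39 M (mega) estimated counts. The code in the labels of Regress 2 is also that of Normal 4. What a code stands for is not stated, so the p-values speak only for the spread among these 14 pieces of tissue. Grow 3 and Grow 4 were much alike (r of log2 CPM 0.979) and were kept as 2 samples, as the labels list them. Their counts differed beyond counting noise, which does not show that they came from separate tumours. With their counts summed as 1 sample, the calls reported for Tagln (adjusted p = 0.0516, edgeR, all tumours against normal liver) and Ecm1 (0.0676, Grow against normal liver) were lost. Long transcripts took a larger share of some libraries than of others. The slope, in log2 units per doubling of transcript length, ran from -0.478 to 0.392 in Regress, from -0.143 to 0.416 in Grow and from -0.262 to 0.446 in normal liver. The tested matrix genes are long, with a median of 4722 bases against 2924.1 for all tested features with a known length.

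One library stood apart. Regress 4 held the highest level of all 14 libraries for 32 of the 37 genes, and for 28 of the 33 past the filter, whereas 12.7% of all tested features were highest there. Counts out of 37 include Lox, Loxl1, Mmp2 and Timp1, which did not pass the filter, whereas the shares cover only features that did. It lay above all 4 normal livers for 34 of the 37, against 29.8% of tested features. Among the genes past the filter, 19 of 33 stood at over 2 times the next highest library, against 0.927% of all tested features. Over 5 times the next library were 11 features of 12300 (0.0894%), and 6 of these 11 were Col1a1, Col1a2, Col6a1, Col6a2, Pdgfrb and Thbs2. The other tumours did not share this height. Of the 37 genes, Regress 1 had 5 above and 12 below all normal livers, where 26.6% and 28.7% of all tested features lay, Regress 2 had 14 above and 13 below (27.8% and 30.7%), and Regress 3 had 21 above and 9 below (27.6% and 32.4%). The 6 Grow tumours had from 13 to 19 above and from 5 to 14 below, with 22% to 25.4% and 19.5% to 24.6% of features. Results for Regress are therefore given with and without Regress 4.

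**Figure D1:**
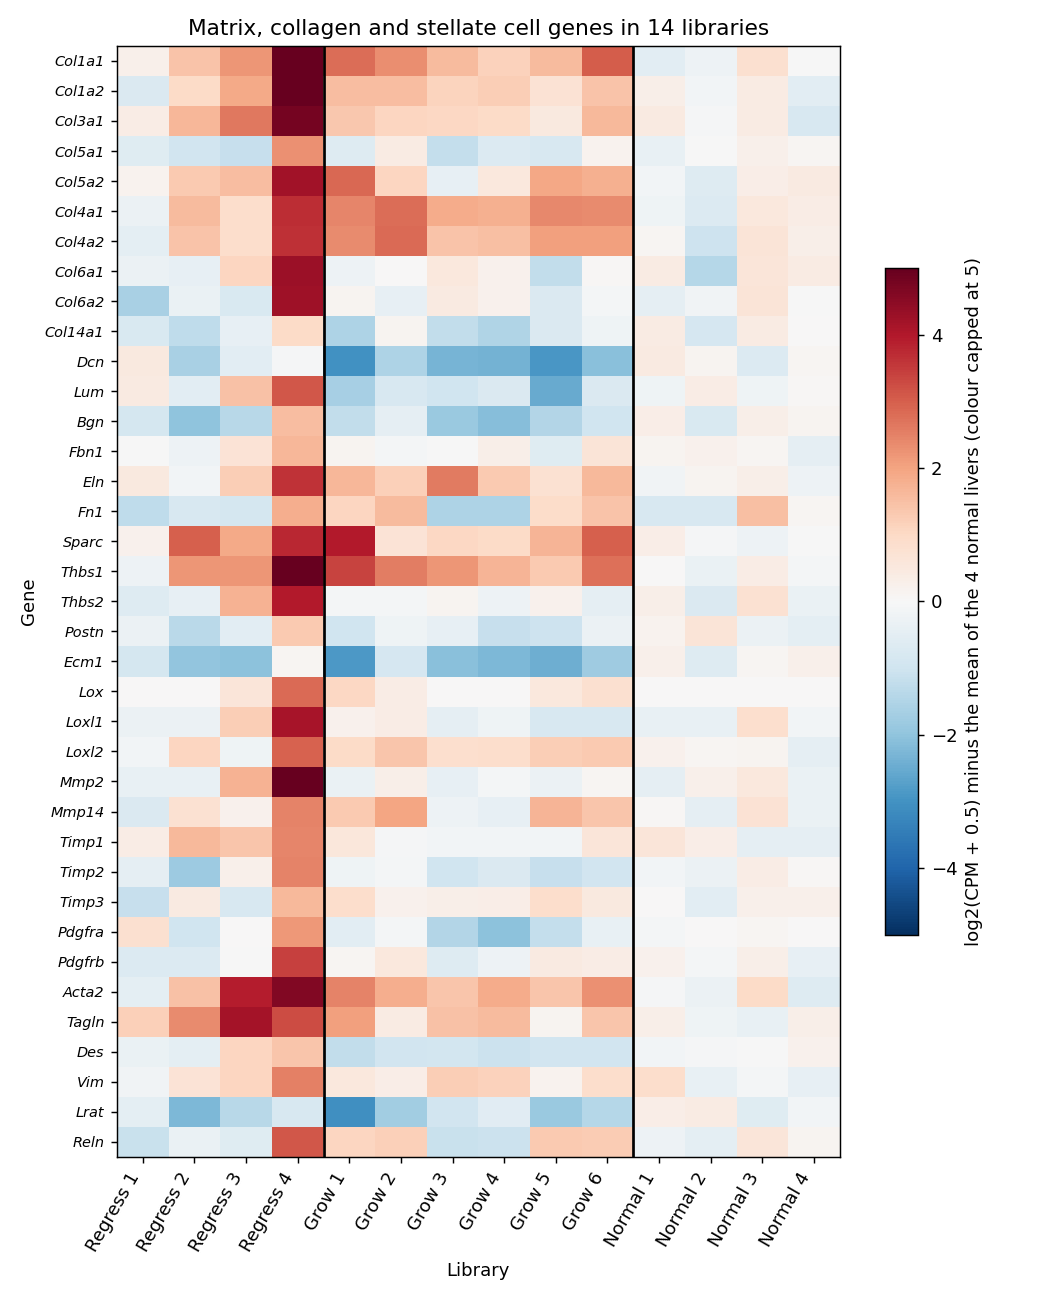
Level of the 37 measured genes (down) in each library (across), as log2(CPM + 0.5) minus the mean of the 4 normal livers, with red for higher and blue for lower and the colour capped at 5. The Regress 4 column is red for nearly all genes, with Col1a1 at 186 CPM, while Dcn, Ecm1 and Lrat are blue in the Grow columns.

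Fibrillar collagens form the tensile fibres of scar tissue, and 5 of their chains are in the set. Col1a1, the main chain of type I collagen, stood at 0.985, 2.77, 5.15 and 186 CPM (the count as a share of the scaled library, in parts per 1 M) in Regress 1 to 4. It ran from 2.24 to 9.59 CPM in Grow, with a median of 4.46, and stood at 0.351, 0.526, 1.64 and 0.727 CPM in Normal 1 to 4. All Grow tumours lay above all normal livers, and Regress 1 lay among the normal livers. Col1a2, its partner chain, stood at 1.58, 6.13, 12.4 and 201 CPM in Regress 1 to 4, from 5.14 to 9.60 CPM in Grow (median 8.11) and from 1.89 to 4.03 CPM in normal liver. Col3a1, the chain of type III collagen, stood at 11.8, 30.1, 59.0 and 266 CPM in Regress 1 to 4, from 12.9 to 28.8 CPM in Grow (median 19.6) and from 5.09 to 12.5 CPM in normal liver. For all 3 chains the Grow and Normal ranges did not overlap, and Regress 2 and 3 lay above every normal liver. The type V chains help to start fibrils. Col5a2 ran from 0.985 to 23.98 CPM in Regress, from 0.505 to 9.30 in Grow and from 0.350 to 1.31 in normal liver. Col5a1 ran from 1.29 to 18.9 CPM in Regress, from 1.26 to 4.80 in Grow and from 2.63 to 4.33 in normal liver, with Regress 1 to 3 below every normal liver.

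The balance between the fibrillar chains differed as well. Per length, the level of Col3a1 was 12.8, 11.6, 12.2 and 1.53 times that of Col1a1 in Regress 1 to 4. The same ratio ran from 3.16 to 8.75 in Grow and from 7.46 to 37.8 in normal liver. Col1a1 rested on few counts in both normal liver (2 to 11) and Regress 1 to 3 (5, 14 and 20), against 1318 in Regress 4. Col3a1 exceeded Col1a1 in every library on the per-length scale, by the least in Regress 4.

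Type IV collagen forms the sheet of basement membranes and is built from the Col4a1 and Col4a2 chains, whose genes start next to each other on opposite strands. Their promoter windows (250 bases before to 50 after each gene's start, RefSeq, build GRCm38.p6, a build of another mouse strain) are shown because both genes were high and low in the same groups of libraries. Capitals mark the 78 bases that the windows share, read on opposite strands. The annotated starts lie 21 bases apart, so that the first bases of the transcripts overlap, and the library kit, which does not mark strand, cannot tell such reads apart.
Col4a1, chr8:11312777-11313076, minus strand: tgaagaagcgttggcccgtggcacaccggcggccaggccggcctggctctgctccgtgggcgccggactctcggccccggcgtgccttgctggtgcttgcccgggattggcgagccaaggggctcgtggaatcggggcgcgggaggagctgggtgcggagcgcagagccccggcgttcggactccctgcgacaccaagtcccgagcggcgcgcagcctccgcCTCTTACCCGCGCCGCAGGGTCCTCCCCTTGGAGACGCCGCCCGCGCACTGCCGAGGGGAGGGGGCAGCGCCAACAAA
Col4a2, chr8:11312555-11312854, plus strand: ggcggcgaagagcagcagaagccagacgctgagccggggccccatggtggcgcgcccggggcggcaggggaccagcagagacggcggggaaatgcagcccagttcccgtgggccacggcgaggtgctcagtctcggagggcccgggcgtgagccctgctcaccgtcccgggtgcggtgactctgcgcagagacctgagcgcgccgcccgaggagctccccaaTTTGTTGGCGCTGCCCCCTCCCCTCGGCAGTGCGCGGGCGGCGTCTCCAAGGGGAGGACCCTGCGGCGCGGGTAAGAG

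Col4a1 stood at 7.49, 28.7, 17.5 and 124 CPM in Regress 1 to 4. It ran from 33.2 to 68.0 CPM in Grow, with a median of 50.2, and stood at 7.90, 5.61, 13.4 and 12.2 CPM in Normal 1 to 4. All 6 Grow tumours lay above every normal liver and also above Regress 1 to 3. Col4a2 followed, with 3.74, 15.6, 10.6 and 74.8 CPM in Regress 1 to 4, from 15.8 to 42.1 CPM in Grow (median 24.3) and from 2.45 to 8.82 CPM in normal liver. Per length, the level of Col4a1 was 1.62 to 1.95 times that of Col4a2 in Regress, 1.57 to 2.13 times in Grow and 1.29 to 2.23 times in normal liver. The ratio of the chains thus stayed within a narrow range while Col4a1 itself ran from 5.61 to 124 CPM.

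The chains of type VI collagen, which forms fine filaments around cells, were high in Regress 4 alone. Col6a1 stood at 1.77, 1.58, 5.41 and 53.2 CPM in Regress 1 to 4, from 0.685 to 3.54 CPM in Grow and from 0.526 to 3.74 CPM in normal liver. Col6a2 stood at 0.197, 1.19, 0.772 and 40.2 CPM in Regress 1 to 4, from 0.799 to 2.40 CPM in Grow and from 1.05 to 2.84 CPM in normal liver. Outside Regress 4 the groups overlapped for both. Col14a1, a collagen that sits on fibril surfaces, ran from 12.8 to 62.4 CPM in Regress, from 10.8 to 34.8 in Grow and from 17.5 to 43.2 in normal liver.

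Small leucine-rich proteoglycans bind collagen and regulate fibril growth, and decorin and lumican went their own way. Dcn (decorin), a gene of quiescent as well as activated stellate cells, stood at 301, 70.0, 147 and 207 CPM in Regress 1 to 4. It ran from 26.1 to 72.0 CPM in Grow, with a median of 42.1, and stood at 294, 235, 132 and 227 CPM in Normal 1 to 4. Every Grow tumour lay below every normal liver, while Regress 3 and 4 lay within the normal range, Regress 1 just above it and Regress 2 below it. Lum (lumican) stood at 9.65, 4.75, 20.1 and 64.8 CPM in Regress 1 to 4, from 0.799 to 4.06 CPM in Grow (median 3.58) and from 5.97 to 9.29 CPM in normal liver. All Grow tumours lay below all Regress tumours and all normal livers. Bgn (biglycan) stood at 40.8, 18.2, 28.8 and 224 CPM in Regress 1 to 4, from 16.98 to 55.4 CPM in Grow (median 29.3) and from 44.7 to 94.3 CPM in normal liver, so that Regress 1 to 3 lay below every normal liver and Regress 4 above.

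Fibronectin (Fn1), which hepatocytes also secrete into plasma, took 33.0% to 76.9% of the summed CPM of the 37 genes. It stood at 317, 437, 411 and 2694 CPM in Regress 1 to 4, from 260.3 to 2273 CPM in Grow and at 440.3, 437, 2170 and 812 CPM in Normal 1 to 4. The high and low libraries crossed the groups: Grow 3, Grow 4 and Regress 1 to 3 lay below every normal liver, and Normal 3 lay beside the highest tumours. Its transcript is 8315 bases long, and the 3 libraries where it was highest, Regress 4, Grow 2 and Normal 3, also had the 3 largest slopes on length (0.392, 0.416 and 0.446). The part of length in its level was not tested for this gene alone. Reln, an 11699-base transcript of stellate cells, ran from 13.4 to 258 CPM in Regress, from 13.6 to 74.1 in Grow and from 21.2 to 46.2 in normal liver, with Grow 3 and 4 and Regress 1 and 3 below every normal liver. Of the elastic fibre genes, Eln (elastin) ran from 0.198 to 8.89 CPM in Regress, from 0.799 to 4.17 in Grow and from 0.145 to 0.448 in normal liver, with Grow above Normal throughout. Eln rested on 1 to 3 counts in the normal livers. Fbn1 (fibrillin) ran from 1.78 to 8.04 CPM in Regress, from 1.26 to 3.69 in Grow and from 1.46 to 2.63 in normal liver.

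Matricellular proteins modulate how cells meet the matrix. Sparc, which binds collagen and is also made by endothelial cells, was highest of the set per length in Regress, at a mean of 184 CPM per kb, against 149 in Grow and 27.8 in normal liver. It stood at 73.9, 507, 235 and 875 CPM in Regress 1 to 4, from 102 to 992 CPM in Grow (median 167) and from 52.5 to 80.8 CPM in normal liver. All tumours but Regress 1 lay above every normal liver. Thbs1 (thrombospondin 1), which can activate latent TGF-beta, stood at 0.197, 3.36, 3.35 and 26.4 CPM in Regress 1 to 4, from 1.598 to 8.28 CPM in Grow (median 3.95) and from 0.175 to 0.598 CPM in normal liver, again with Regress 1 alone among the normal values. Thbs1 rested on few counts in normal liver (1 to 4) and in Regress 1 (1). Ecm1, a matrix protein expressed in normal liver, went the other way. It stood at 45.7, 21.4, 20.1 and 91.3 CPM in Regress 1 to 4, from 10.99 to 46.9 CPM in Grow (median 18.3) and at 102, 54.5, 89.7 and 102 CPM in Normal 1 to 4, with all tumours but Regress 4 below every normal liver. Thbs2 (0.591 to 26.1 CPM in Regress, 0.738 to 1.48 in Grow, 0.526 to 2.39 in normal liver) and Postn (periostin, 2.96 to 21.4 CPM in Regress, 3.42 to 7.12 in Grow, 5.67 to 13.3 in normal liver) overlapped between all groups.

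The lysyl oxidases crosslink collagen. Lox had 22 counts in Regress 4, at most 7 in any other library and 0 in all normal livers. Loxl1 had 102 counts in Regress 4 and at most 7 elsewhere. Loxl2 ran from 1.29 to 15.5 CPM in Regress, from 3.28 to 4.95 in Grow and from 1.02 to 1.93 in normal liver, with Grow above Normal throughout. Of the metalloproteinases, Mmp2, a gelatinase of fibroblasts and stellate cells, had 314 counts in Regress 4 and at most 13 in any other library. Mmp14, a membrane protease that activates Mmp2, ran from 10.6 to 104 CPM in Regress, from 13.7 to 71.8 in Grow and from 13.1 to 29.9 in normal liver. Of their inhibitors, Timp1 had at most 23 counts in any library, Timp2 ran from 4.35 to 94.5 CPM in Regress, from 7.19 to 15.3 in Grow and from 13.5 to 21.7 in normal liver, and Timp3 ran from 9.26 to 65.3 CPM in Regress, from 24.6 to 39.4 in Grow and from 14.4 to 25.6 in normal liver. The top of each Regress range was Regress 4. The PDGF receptors, which carry growth signals to stellate cells and pericytes, split in the same way. Pdgfrb stood at 41.3 CPM in Regress 4 and from 1.97 to 5.11 CPM in all other libraries, and Pdgfra ran from 1.78 to 19.6 CPM in Regress, from 0.590 to 3.72 in Grow and from 3.69 to 4.33 in normal liver.

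Contractile genes mark activated stellate cells and smooth muscle. The promoter window of Acta2, the smooth muscle actin gene, is shown because CArG boxes, the binding sequence of serum response factor, are its textbook control elements. Capitals mark stretches of CC, then 6 bases of A or T with at most 1 exchanged for C or G, then GG, searched on both strands. Such a stretch was present in 9.98% of 32851 mouse windows of this length, and the exact form, with A or T at all 6 places, in 1.63%. Of the set, 23 genes had a window (25 windows, Tagln not among them), and 5 windows held such a stretch.
Acta2, chr19:34255324-34255623, minus strand: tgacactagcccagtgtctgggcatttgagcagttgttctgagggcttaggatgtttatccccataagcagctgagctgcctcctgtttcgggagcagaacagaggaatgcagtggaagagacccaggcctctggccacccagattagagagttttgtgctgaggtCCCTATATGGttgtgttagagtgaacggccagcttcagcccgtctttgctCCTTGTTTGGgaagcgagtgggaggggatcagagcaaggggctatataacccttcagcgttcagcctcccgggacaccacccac

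Acta2 stood at 0.394, 2.96, 18.3 and 30.3 CPM in Regress 1 to 4, from 2.74 to 6.52 CPM in Grow (median 3.94) and from 0.291 to 1.94 CPM in normal liver. Acta2 rested on 2 to 13 counts in the normal livers. Tagln (transgelin), an actin-binding protein of contractile cells, stood at 7.29, 16.8, 60.8 and 32.5 CPM in Regress 1 to 4. It ran from 3.20 to 13.4 CPM in Grow, with a median of 8.72, and stood at 3.69, 2.45, 2.09 and 3.64 CPM in Normal 1 to 4. All Regress tumours lay above all normal livers, and the highest library here was Regress 3, not Regress 4. In Regress 3 the smooth muscle genes Cnn1 (6.44 CPM, at most 0.757 elsewhere) and Actg2 (14.2 CPM, at most 2.54 elsewhere) were also highest, and their part in the level of Tagln was not tested. Des (desmin), the intermediate filament of stellate and muscle cells, stood at 3.15, 2.77, 9.01 and 11.4 CPM in Regress 1 to 4, from 1.47 to 1.89 CPM in Grow (median 1.84) and from 3.69 to 4.80 CPM in normal liver. Grow lay below both other groups without overlap. Vim (vimentin), found in all mesenchymal cells and in leukocytes, ran from 15.2 to 103 CPM in Regress, from 19.6 to 41.7 in Grow and from 13.1 to 31.9 in normal liver. Lrat, which makes the retinyl esters that quiescent stellate cells store, ran from 3.76 to 13.6 CPM in Regress, from 1.91 to 13.1 CPM in Grow (median 6.29) and stood at 24.4, 26.3, 12.7 and 17.8 CPM in Normal 1 to 4. It was 1 of 5 genes that did not peak in Regress 4, beside Ecm1, Sparc, Dcn and Tagln.

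**Figure D2:**
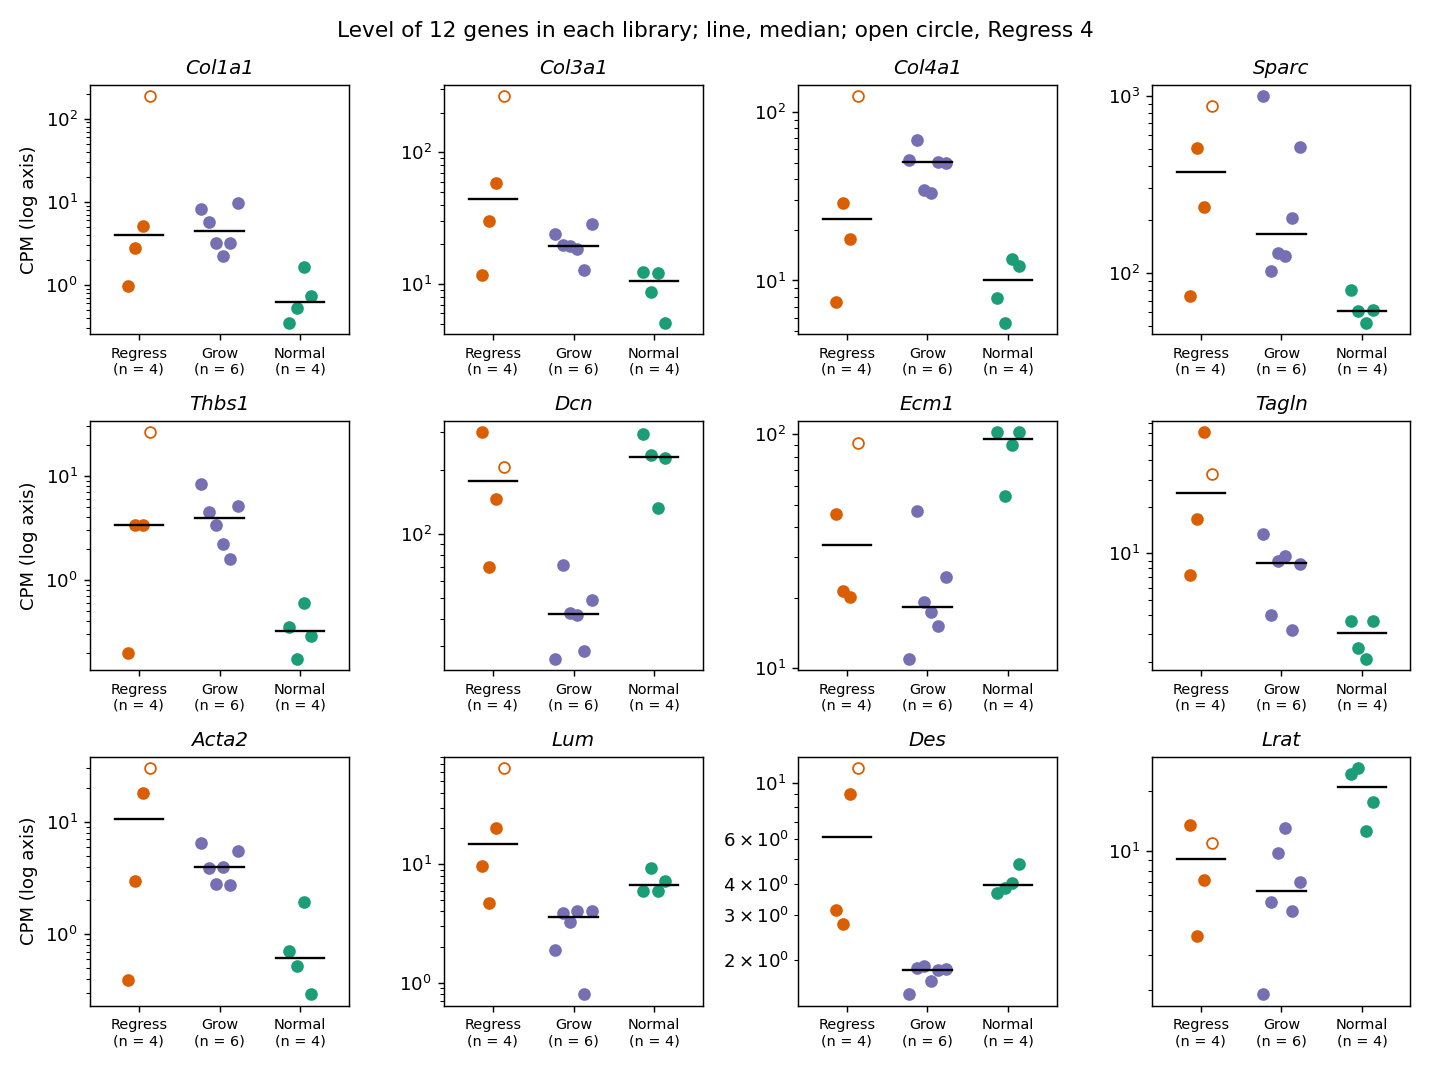
CPM on a log axis of 12 genes in each library, by group, with a line at the group median and an open circle for Regress 4. Dcn in Grow (26.1 to 72.0 CPM) lies below normal liver (132 to 294 CPM), and Col4a1 in Grow (33.2 to 68.0 CPM) lies above it (5.61 to 13.4 CPM).

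Against normal liver, Grow tumours had less decorin and Ecm1. Dcn fell (43.3 ± 16.6 CPM in Grow, SD, n = 6, and 222 ± 67.0 in normal liver, n = 4), with a log2 fold change of -2.36 ± 0.39 (SE) and an adjusted p of 0.0178 by edgeR's quasi-likelihood test with Benjamini-Hochberg adjustment over all features. Ecm1 fell (22.4 ± 12.8 CPM in Grow and 86.9 ± 22.4 in normal liver, log2 fold change -1.96 ± 0.45, adjusted p = 0.0424). These were the 2 genes called of the 33 tested, with 0 called higher, against 1.76% of all 12300 features called in either direction and 1.12% called higher. Next in order came Col4a1 (2.29 ± 0.62, adjusted p = 0.0700), Thbs1 (3.49 ± 1.02, adjusted p = 0.0847), Lrat (-1.52 ± 0.45, adjusted p = 0.0852) and Des (-1.22 ± 0.37, adjusted p = 0.0953), and Col1a1 had 2.66 ± 1.29 (adjusted p = 0.321).

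At an unadjusted p under 0.05 there were 9 higher and 5 lower, against 9.46% and 7.09% of features. Without regard to the test, 10 genes had all Grow values above all normal values, namely Col1a1, Col1a2, Col3a1, Col4a1, Col4a2, Eln, Sparc, Thbs1, Loxl2 and Acta2, against 5.27% of all features. Another 4 had them below (Dcn, Lum, Ecm1 and Des), against 4.28%. The median log2 fold change was 0.45 over the 33 tested genes and -0.00 over all features. The fit shares its estimate of spread with Regress, and other sets of libraries gave other counts. In a fit of the Grow and Normal samples alone 13 were called, 9 higher and 4 lower, against 7.32% of features, and without Regress 4 there were 9 (Bgn, Col1a1, Col4a1, Col4a2, Dcn, Des, Ecm1, Eln and Thbs1), against 5.2%. Dcn missed the threshold without Normal 1 (adjusted p = 0.0748) and without Normal 4 (0.0669). Ecm1 missed it without any 1 of the normal livers (0.076 to 0.13) and without Grow 1, 3, 4, 5 or 6 (0.0666 to 0.0872).

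Taking all 10 tumours against normal liver, with the Grow and Regress effects averaged, Tagln was the gene called. It rose (16.5 ± 17.7 CPM in tumours, SD, n = 10, and 2.97 ± 0.82 in normal liver, n = 4), with a log2 fold change of 2.36 ± 0.54 and an adjusted p of 0.0397 by edgeR. That is 1 of 33, against 2.32% of all features in either direction and 1.59% higher. The next genes missed the threshold closely: Thbs1 had 3.99 ± 1.00 (adjusted p = 0.0515), Dcn -1.33 ± 0.34 (0.0539), Col4a1 2.24 ± 0.60 (0.0623), Ecm1 -1.46 ± 0.40 (0.0665) and Acta2 3.07 ± 0.86 (0.0722). Of these, Thbs1 had 1 to 4 counts and Acta2 2 to 13 counts in normal liver. At an unadjusted p under 0.05 there were 13 higher and 3 lower of 33, against 9.98% and 8.01% of all features. The median log2 fold change was 1.02 over the 33 genes and 0.01 over all features, but 0.07 over the 33 without Regress 4. The values of all 33 genes overlapped between tumours and normal liver, whereas 1.09% of features lay higher and 0.935% lower without overlap. Col1a1 had 4.26 ± 1.304 (adjusted p = 0.0909). Tagln missed the threshold without Normal 1, 2, 3 or 4 (adjusted p 0.0944 to 0.140), without Grow 1, 4 or 6 (0.0512 to 0.0651) and without Regress 3 (0.0564). Without Regress 1, which had 20 of the 37 genes within the normal range, 12 genes were called, 10 of them higher, against 7.84% of features, and without Regress 4 there were 5 (Bgn, Col4a1, Ecm1, Tagln and Thbs1), against 2.26%.

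Regress tumours were next set against normal liver. By edgeR 0 of the 33 genes passed, against 0.0244% of all features, with 18 higher and 1 lower at an unadjusted p under 0.05 (9.56% and 6.6% of all features), 9 called by DESeq2 (5.79% of all features) and 0 by limma-voom (0%). Tagln came closest (29.3 ± 23.4 CPM in Regress and 2.97 ± 0.82 in normal liver, SD, n = 4 each, log2 fold change 3.29 ± 0.61, adjusted p = 0.0510) and was the sole gene whose values did not overlap, against 2.72% of features that lay higher in that way. It had 3.24 ± 0.65 without Regress 4 (adjusted p = 0.0545). The collagens leaned on Regress 4. Col1a1 had 5.86 ± 1.44 (adjusted p = 0.0748) and 1.81 ± 0.69 without Regress 4 (0.128), and Col1a2 had 4.18 ± 1.10 (0.0874) and 1.11 ± 0.51 without it (0.180). Col3a1 had 3.25 ± 0.73 (adjusted p = 0.0621) and 1.80 ± 0.46 without Regress 4 (0.0701), and Acta2 had 3.88 ± 0.95 (0.0744) and 3.00 ± 0.90 without it (0.0860). Thbs1 had 4.49 ± 1.07 (0.0703), and 2.61 ± 0.82 without Regress 4 (0.0912). The median over the 33 genes was 1.79, against 0.03 over all features, and 0.21 without Regress 4. Without Regress 1, 9 genes were called (Acta2, Col1a1, Col1a2, Col3a1, Col4a1, Col4a2, Sparc, Tagln and Thbs1), all higher in Regress, against 5.28% of features.

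Regress against Grow asks what set tumours with the regressing label apart from growing ones. SAHA had been given to 4 of the 6 Grow tumours and to no Regress tumour, and TMZ doses differed. Label and drugs therefore cannot be fully told apart in this comparison. Decorin, desmin and lumican had the lowest p-values, all with higher means in Regress. By edgeR 0 of the 33 genes passed, and 0% of all features did, with 16 higher and 0 lower at an unadjusted p under 0.05 (6.91% and 3.09% of all features), 3 called by DESeq2 (Dcn, Des and Lum, where 0.252% of all features were called) and 0 by limma-voom (0%). Dcn had a log2 fold change of 2.07 ± 0.38, Des 1.91 ± 0.37 and Lum 3.07 ± 0.60, all with an adjusted p of 0.416. Des and Lum did not overlap between the groups, against 0.374% of features that lay higher in that way. Tagln (1.87 ± 0.49), Thbs2 (2.85 ± 0.79) and Col3a1 (2.16 ± 0.61) came next by p, with an adjusted p of 0.474. Col1a1, in place 10 by p, had 3.20 ± 1.04 and the same adjusted p.

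Leaving out Regress 4 changed which genes passed. The median of the 33 genes was -0.17 without it, against 1.07 with it, and Col1a1 turned to -0.86 (adjusted p = 0.322). In that fit edgeR called 9.98% of features, and of the 33 genes Dcn (1.99 ± 0.41, adjusted p = 0.0291), Des (1.48 ± 0.35, 0.0319), Lum (1.95 ± 0.47, 0.0331) and Tagln (1.81 ± 0.54, 0.0498) rose in Regress while Col4a1 fell (-1.43 ± 0.41, 0.0450). Values of Lum and Des in Regress 1 to 3 all lay above Grow, 2 of the 33 genes, against 10.7% of features. Those of Col4a1 and Col4a2 all lay below, again 2 of 33, against 12.4%. Neither count exceeded the share of all features. With the trend on transcript length removed as well, a setting chosen after seeing the data, 2.77% of features were called. Dcn, Des and Lum were called again and so was Pdgfra, whereas Col4a1 (-0.61 ± 0.33, adjusted p = 0.270) and Tagln were not.

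**Figure D3:**
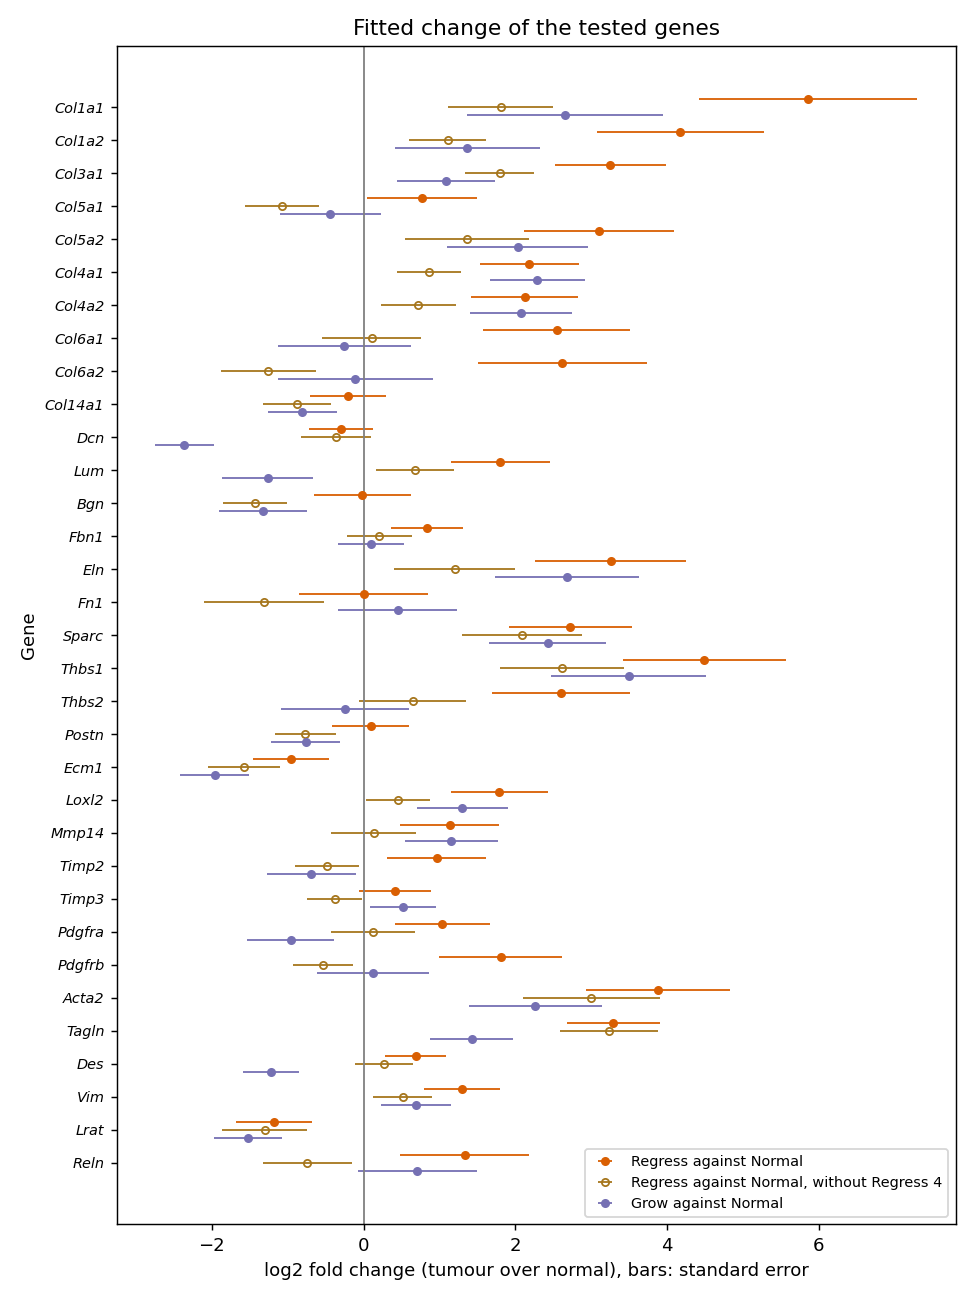
Fitted log2 fold change with its standard error of the 33 tested genes in Regress against Normal with all libraries (filled orange) and without Regress 4 (open brown), and in Grow against Normal (purple). Col1a1 has 5.86 with and 1.81 without Regress 4, whereas Tagln has 3.29 and 3.24, and Dcn lies at -2.36 in Grow.

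Markers of the cells that could carry these genes moved with the groups. Of 18 other stellate cell markers, 16 were tested. In Grow against Normal 6 were called lower and 1 higher by edgeR, against 0.642% and 1.12% of features. At an unadjusted p under 0.05 there were 14 lower and 2 higher, against 7.09% and 9.46% of features. The median log2 fold change of the 16 was -1.92. Those that fell included Gdf2, which encodes a BMP ligand of stellate cells (-2.37 ± 0.34, adjusted p = 0.0121), Angptl6 (-2.02 ± 0.40, 0.0287) and the transcription factor Tcf21 (-2.91 ± 0.60, 0.0306). The summed CPM of the 18 markers was 594, 302, 410 and 429 in Regress 1 to 4, from 177 to 290.1 in Grow and from 481 to 643 in normal liver, so that Grow lay below both other groups. A large part of this sum was Cxcl12 alone, with a mean of 92.0 CPM in Grow and 298 in normal liver. Gfap stayed under 1 CPM in every library. In Regress against Normal the median was -0.59, with 0 of 16 called by edgeR, 2 higher and 0 lower at an unadjusted p under 0.05, against 9.56% and 6.6% of all features.

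The summed markers of mesothelium, portal fibroblasts and smooth muscle were highest in Regress 4, whereas those of sinusoidal endothelium were not. The 6 mesothelial markers summed to 37.95 CPM there and to 1.26 to 7.90 CPM in all other libraries, with Upk1b under 1 CPM in every library. The 12 portal fibroblast markers summed to 98.3 to 241 CPM in Regress, 91.0 to 151 in Grow and 53.8 to 127 in normal liver. Gli1 stayed under 1 CPM in all. Of the 5 tested, Entpd2 was called higher against normal liver by edgeR. It had 2.61 ± 0.57 in all tumours (adjusted p = 0.0344, 1.59% of features called higher) and 2.49 ± 0.59 in Grow (0.0464, 1.12%). Of the 5, 4 had a positive and 1 a negative change in all tumours, with a median of 1.46. In Grow 3 were positive and 2 negative, with a median of 0.17. The 8 smooth muscle markers summed to 14.0 to 111 CPM in Regress, 38.02 to 55.3 in Grow and 28.8 to 77.9 in normal liver, with Myocd at 0 in all. Sinusoidal endothelial markers summed to 177 to 217 CPM in Regress, 107 to 325 in Grow and 164 to 255 in normal liver. Of the 7 tested, Lyve1 was called higher in all tumours against normal liver (3.09 ± 0.74, adjusted p = 0.0443, edgeR), against 1.59% of all features. In that comparison 3 of the 7 had a positive and 4 a negative log2 fold change, with a median of -0.10. Hepatocyte markers summed to 90800, 218700, 218000 and 221100 CPM in Regress 1 to 4 and to 79040 to 112100 CPM in normal liver. In Grow 1 to 6 they summed to 247700, 230900, 52450, 52410, 295300 and 307400 CPM, with Grow 3 and 4 the lowest libraries. Fn1 stood at 317, 437, 411 and 2694 CPM in Regress 1 to 4. In Grow 1 to 6 it stood at 1587, 2273, 263, 260 , 1456 and 2062 CPM. The 7 markers of continuous endothelium, which also makes type IV collagen, summed to 45.7 to 123 CPM in Regress, 59.7 to 117 in Grow and 49.4 to 85.1 in normal liver. In all tumours against normal liver 6 of these 7 had a positive log2 fold change, 4 were higher at an unadjusted p under 0.05 (9.98% of all features) and Cd34 rose (3.49 ± 0.82, adjusted p = 0.0408, edgeR). The 7 cholangiocyte markers summed to 16.0 to 446 CPM in Regress, 32.2 to 525.9 in Grow and 12.4 to 19.6 in normal liver, with Regress 1 alone among the normal values. Of the 5 tested, Tspan8 rose in tumours (186 ± 174 CPM in tumours and 2.98 ± 2.33 in normal liver, log2 fold change 5.97 ± 1.43, adjusted p = 0.0443). The part of any of these cells in the matrix gene levels was not tested.

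**Figure D4:**
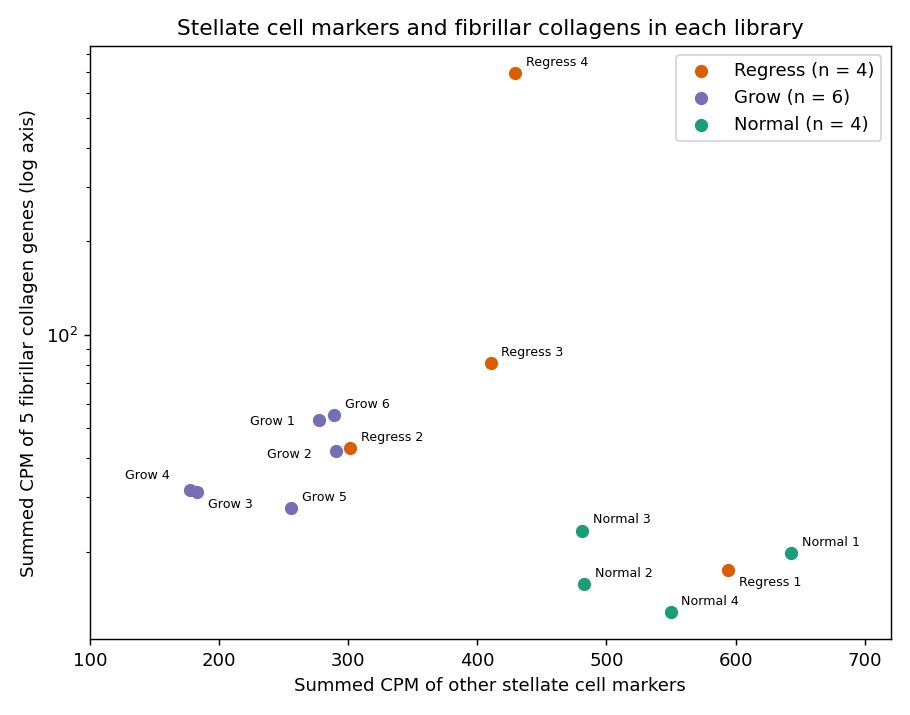
Summed CPM of 5 fibrillar collagen genes (log axis) against summed CPM of 18 other stellate cell markers, 1 point per library. Cxcl12 alone makes up a large part of the marker sum in Grow and normal liver. Grow lies at 177 to 290.1 CPM of stellate markers with 27.6 to 55.2 CPM of collagens, normal liver at 481 to 643 with 12.8 to 23.5, and Regress 4 at 429 with 697.

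Related pathway genes gave few calls. In all tumours against normal liver, 9.98% of all features were higher and 8.01% lower at an unadjusted p under 0.05, the background for the counts of each list here. Of 21 tested genes of TGF-beta signalling, the main inducer of matrix genes, 0 passed in the comparisons by edgeR, with 6 higher and 0 lower at an unadjusted p under 0.05 in all tumours against normal liver and a median of 0.33. Of the 3 tested PDGF ligands 0 passed (2 higher at an unadjusted p under 0.05, median 1.47). Of 15 tested enzymes and chaperones of collagen processing, P4ha2, a collagen prolyl hydroxylase, fell in tumours (1.54 ± 0.97 CPM in tumours and 6.00 ± 2.10 in normal liver, log2 fold change -2.13 ± 0.40, adjusted p = 0.0238), and the median was 0.26. Of the tested laminins, nidogens and heparan sulfate proteoglycans (11), other collagens (8), other matrix proteases and regulators (11) and matrix receptors (18), 0 passed by edgeR in the comparisons, with 2, 3, 4 and 5 higher and 1 lower in each at an unadjusted p under 0.05 and medians from 0.13 to 0.79 in tumours against normal liver.

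The drugs were compared within tumours. Sparc stood at 73.9 and 235 CPM in Regress 1 and 3 and 102, 129 and 124 CPM in Grow 2, 3 and 4 with TMZ, against 507 and 875 CPM in Regress 2 and 4 and 992, 205 and 510 CPM in Grow 1, 5 and 6 without TMZ. Regress 3 and Grow 5 were the pair that overlapped. The log2 fold change beside the group effect was -2.22 ± 0.41 (adjusted p = 0.0668, edgeR). By edgeR 0 of the 33 genes and 0% of all features passed, with 0 higher and 6 lower at an unadjusted p under 0.05 (6.32% and 7.54% of features), 3 called by DESeq2 (Col5a2, Sparc and Timp3, where 3.77% of all features were called) and 0 by limma-voom (0.0163%). The 6 were Sparc, Col5a2 (-2.32 ± 0.60, adjusted p = 0.127), Timp3 (-1.13 ± 0.34, 0.184), Reln (-1.90 ± 0.65, 0.236), Col1a1 (-2.43 ± 1.05, 0.328) and Mmp14 (-1.20 ± 0.52, 0.331). Timp3 did not overlap, with 9.26 to 26.9 CPM with TMZ and 28.9 to 65.3 CPM without, against 0.967% of features that lay lower in that way, and 0 of the genes lay higher without overlap, against 0.78%. The direction over the set rested on Regress 4: the median of the 33 genes was -0.94 with it, against -0.03 over all features, and 0.07 without it. Without Grow 2, 5 genes passed, against 6.01% of features. Sparc passed without Grow 2 (adjusted p = 0.0227), without Regress 3 (0.0264) and with the trend on length removed (0.0402). TMZ doses differed between Regress and Grow, and all 3 Grow tumours with TMZ also had SAHA.

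**Figure D5:**
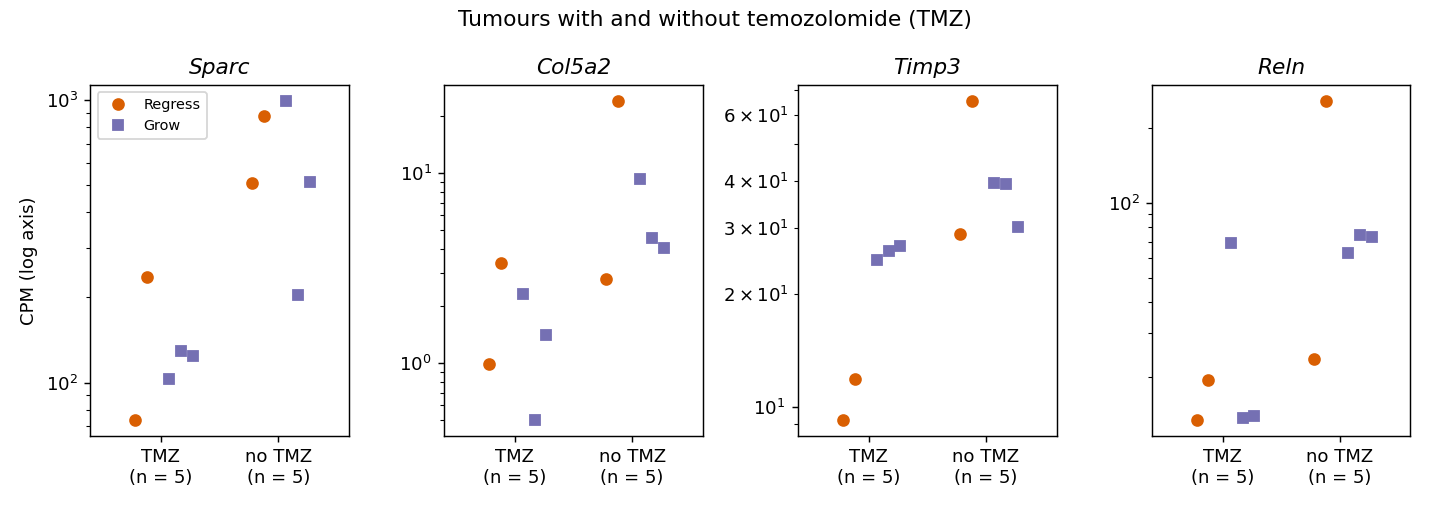
CPM on a log axis of 4 genes in tumours with TMZ and without it, with circles for Regress and squares for Grow. Timp3 lies at 9.26 to 26.9 CPM with TMZ and at 28.9 to 65.3 CPM without it.

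Within Grow, 4 tumours with SAHA were set against 2 without. Lrat stood at 5.57, 9.85, 13.1 and 7.01 CPM with SAHA (Grow 2, 3, 4 and 6) and at 1.91 and 5.02 CPM without (Grow 1 and 5), and its log2 fold change was 1.37 ± 0.57 (adjusted p = 1.00 by edgeR). Dcn (0.92 ± 0.50), Lum (1.45 ± 0.82) and Ecm1 (1.04 ± 0.61) also lay higher without overlap, as did Col6a1, and Col5a2 (-1.77 ± 0.97) lay lower, as did Timp3, with 5.85% of all features higher and 5.57% lower in that way. By edgeR 0 of the 33 genes and 0% of features passed, with 1 higher and 0 lower at an unadjusted p under 0.05 (2.07% and 0.569% of features), and DESeq2 (0.423% of features) and limma-voom (0%) called 0 of the genes. With 2 tumours without SAHA, and TMZ given to 3 of the 4 with it, the drugs cannot be told apart here.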

How the data were processed

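Total RNA was extracted with the Qiagen RNeasy kit and libraries were made with the TruSeq RNA kit v2, which does not mark strand, per the labels' protocols. The authors deposited 1 table of estimated counts per transcript (35230 rows). Tools and builds listed in the submitters' processing notes are mm9, edgeR 3.14.0 and Salmon 0.3.1; which annotation was used is not given in the sources used here. 1 column that matched no sample was not used.

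Transcripts were named through RefSeq (26081) and GENCODE (144); 9005 were unmatched. Estimated counts were summed per gene, rounded and scaled by TMM. Of 30436 features, 12300 passed edgeR's filter on low counts. CPM are counts per 1 M of the TMM-scaled library. The groups Regress, Grow and Normal were compared with edgeR's quasi-likelihood test (edgeR 4.0.16, limma 3.58.1, DESeq2 1.42.0, R 4.3.3; prior count 2; adjusted p under 0.05 over all features). TMZ was a term beside group within tumours, and SAHA was compared within Grow. The biological coefficient of variation was 0.484. Code was tested on simulated data. All members are given by level; fold changes are printed for members called in a comparison, for Col1a1 and otherwise for at most the 6 members with the lowest p in a comparison, and up to 4 called genes per other list. The members and lists were chosen with earlier results of these data known. Alternatives were other size factors, filters and tools, only the groups compared, leaving out libraries, summing Grow 3 and 4, a replicate block and removal of the length trend. Replicate numbers were not taken to pair samples, except in the replicate block. Numbers of counts limit the precision of low genes. One result on a gene of another list is not reported here.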

Additional observations from a re-analysis of the deposited data

Results flagged for a closer look

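Within each group of 4 or 6 samples, the gap of the highest or lowest sample to its neighbour was divided by the range of the group, and 19 of 111 groups exceeded the critical value (0.829 for 4 samples and 0.625 for 6). The rate of about 1 in 20 by chance holds for normally distributed values in independent groups. Here the genes share the same libraries and all 19 flags were for the highest sample. The 19 of 111 therefore cannot be set against that rate. Regress 4 was the far sample for 16 genes in Regress. The gap was 0.977 of the range for Col1a1, 0.946 for Col1a2, 0.95 for Col5a1 and 0.897 for Col5a2. It was 0.833 for Col4a2, 0.926 for Col6a1, 0.975 for Col6a2 and 0.89 for Bgn. It was 0.875 for Eln, 0.95 for Fn1, 0.879 for Thbs1 and 0.917 for Lox. It was 0.905 for Loxl1, 0.933 for Mmp2, 0.965 for Pdgfrb and 0.959 for Reln. In the other groups Grow 3 was far above the other Grow tumours for Eln (0.672), Normal 3 above the other normal livers for Loxl1 (0.867) and Normal 1 for Vim (0.846).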

How the results depend on the processing

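Of the alternatives for single genes, 835 kept direction and side of the threshold, 79 crossed to called, 28 lost the call and 7 turned sign; the cause was not tested. In Regress against Grow, Col1a1 turned to -0.86 without Regress 4 (leaving out 1 library gave -0.86 to 3.60) and to -0.12 with the length trend removed as well, a setting chosen after seeing the data. In SAHA against no SAHA, Sparc turned to 0.12 without Grow 1, with a range of -2.34 to 0.12 over libraries left out. There Col1a1 turned to 0.71 without Grow 1, 0.02 without Grow 3 and 0.10 without Grow 4, over a range of -0.67 to 0.71, and to 0.046 with Grow 3 and 4 summed.

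The number of genes called was 1 (Tumour against Normal), 2 (Grow against Normal) and 0 in the other comparisons; shares in brackets are those of all features called. Tumour gave 12 with DESeq2 (8.58%), 0 with limma-voom (1.03%), 0 with Grow 3 and 4 summed (1.77%), 6 with the length trend removed (5.78%) and 9 with Regress 4 left out too (4.67%). Grow gave 8 (8.24%), 1 (0.756%), 1 (0.927%), 6 (4.79%) and 10 (7.37%) under the same settings, and 13 with only the groups compared (7.32%). Regress against Normal gave 1 with RLE size factors (0.285%), 9 with DESeq2 (5.79%) and 5 with the length trend removed (1.36%). Regress against Grow gave 3 with DESeq2 (0.252%) and 4 with length removed and Regress 4 left out (2.77%). TMZ gave 3 with DESeq2 (3.77%) and 1 in each length setting (0.692%, and 0.588% with Regress 4 left out). Without Normal 4 and Regress 2, Tumour gave 0 (0%) and Grow 1 (0.143%). Leaving out 1 library gave 0 to 12 for Tumour, 0 to 9 for Grow, 0 to 9 for Regress against Normal, 0 to 5 for Regress against Grow, 0 to 5 for TMZ and 0 for SAHA. The highest of these came without Regress 1 for Tumour (7.84%) and Regress against Normal (5.28%), without Regress 4 for Grow (5.2%) and Regress against Grow (9.98%), and without Grow 2 for TMZ (6.01%).

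With the replicate number as a block, Tumour and Grow against Normal gave 0 calls each, with 0% of all features called (Tagln adjusted p = 0.208, Dcn 0.247, Ecm1 0.365, edgeR). Each library's deviation from its group mean of log2 CPM was correlated with those of the other groups. Same-numbered libraries had correlations of -0.522 to 0.197 over 12 pairs, and 0 of 14 libraries correlated best with its own number. Grow 5 and 6 have no same-numbered library in another group, so they could not have done so. Low correlations cannot settle whether the numbers pair samples.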

Other observations

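Outside the set, 4 named genes, chosen after their values were seen, also stood over 5 times above the next library in Regress 4. Gpnmb, a glycoprotein of macrophages and other cells, stood at 217 CPM there and at 16.2 CPM in Regress 3, the next library (13.4 times). The ratios were 7.19 for Itga8, an integrin chain of stellate and smooth muscle cells, 5.96 for Plxna4, a semaphorin receptor, and 5.79 for Mxra8.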
